A study of Homo sapiens with 2 samples.

Results

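The E2F transcription factor family was described here by 10 genes: E2F1 to E2F8 and TFDP1 and TFDP2, which encode the DP partner proteins. They were taken by symbol, after matching the Ensembl gene IDs of the count files to gene names, and all 10 were found among 58884 listed genes. The libraries come from T24/R, an adherent epithelial line from urinary bladder, kept for 6 h with DMSO as the solvent control or with 1600 nM THZ1. THZ1 binds covalently to CDK7, which phosphorylates both RNA polymerase II at promoters and the CDKs that drive the cell cycle, and it can inhibit CDK12 and CDK13 as well. What the design compares is the RNA of treated and control cells. There was 1 library per group, so differences between them lack a replicate check and carry no p-value.

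E2F proteins bind DNA at short GC-rich sites in the promoters of genes for DNA synthesis and cell cycle progression. E2F1, E2F2 and E2F3 bind DNA as dimers with a DP protein and activate these genes once cyclin D and cyclin E kinases have phosphorylated the pocket protein RB1, which otherwise holds them inactive. E2F4 and E2F5 also need a DP partner and repress the same genes in quiescent cells together with the pocket proteins p130 and p107. E2F6 represses without a pocket protein, through Polycomb-type complexes. E2F7 and E2F8 are called atypical because they carry a pair of DNA-binding domains and need no DP partner; they repress E2F targets late in S phase and are themselves E2F targets. Loss of RB1 control and gain of E2F3 are recurrent in bladder cancer.

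The libraries held 18445831 (DMSO) and 18313827 (THZ1) counts. They were set on a common scale with TMM factors, which assume that most genes do not change, and genes with at least 30 counts in 1 library were tested, 12457 in all. Genes count as lower or higher where the ratio of THZ1 to DMSO reached 2-fold in that direction with a 95% interval that excluded 1. These intervals, like all others below, cover counting error only and not the variation between cultures. Mitochondrially encoded mRNAs took 6.60% of counts in DMSO and 14.9% in THZ1. All 13 were higher by the rule, where 9.70% of all tested genes were, led by MT-ND3 (log2 ratio 2.25), MT-CO3 (1.90), MT-ND5 (1.89) and MT-ATP6 (1.74). Scaled to total counts instead, 11 of the 13 were higher, where 2.95% of all tested genes were. Scaling to total counts moves every log2 ratio by −0.51 and scaling to these mitochondrial mRNAs by −1.69, so a ratio is relative to its reference and the amount of RNA per cell was not measured. CDK7 had 676 and 180 counts. The epithelial keratin gene KRT18 had 696 and 494 counts and KRT8 77 and 100, whereas the urothelial factor gene FOXA1 had 129 and 21 and the epithelial adhesion genes EPCAM (0 and 3) and CDH1 (2 and 3) were at or near 0. Only 4 of 16 urothelial and epithelial markers had enough counts to be tested. The leukocyte list summed to 5 and 2 counts, the endothelial list to 3 and 5, and the fibroblast list to 79 and 104, mostly LUM (34 and 69) and COL1A1 (30 and 20).

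All 10 E2F and DP genes passed the count minimum. In THZ1, 6 of them were lower (E2F2, E2F8, E2F3, E2F6, E2F7 and E2F5), 0 were higher and 4 were neither (E2F4, E2F1, TFDP1 and TFDP2), where 21.3% of all tested genes were lower and 9.70% were higher. The median log2 ratio was −1.48 over the 10 genes and −2.09 over the 8 E2F genes, beside −0.03 over all tested genes (quartiles −0.83 and 0.55). The family spread over a wide range, from 11.5-fold lower for E2F2 to 1.43-fold higher for TFDP2. With total counts 7 of the 10 were lower, E2F4 being the addition, against 34.2% of all genes, and 0 were higher against 2.95%. On the mitochondrial reference all 10 were lower, against 80.3% of all genes, and 0 were higher against 0.706%. A bulk library cannot tell apart fewer cells in the cycle phase that expresses a gene from less RNA of that gene in each cell.

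**Figure D1:**
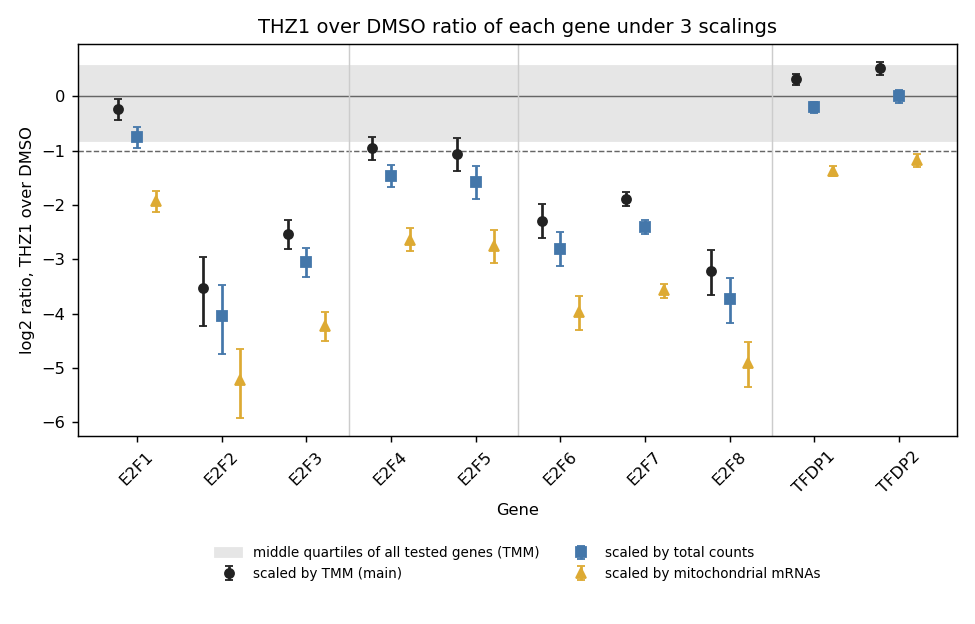
Log2 ratio of THZ1 over DMSO for each gene (vertical axis) with its 95% counting interval, scaled by TMM, by total counts or by mitochondrially encoded mRNAs; 1 library per group. The dashed line marks 2-fold lower. The grey band spans the quartiles of all tested genes on the TMM scale (−0.83 to 0.55) and is to be read against the TMM points only. On the TMM scale E2F2, E2F3 and E2F6 to E2F8 lie between −3.53 and −1.88, E2F5 and E2F4 at −1.07 and −0.95, and E2F1, TFDP1 and TFDP2 between −0.24 and 0.52.

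The activator genes did not move alike. E2F2 had 390 counts in DMSO and 23 in THZ1. The log2 ratio was −3.53 (−4.23 to −2.95), or 11.5-fold lower, with 0.739% of the 12457 tested genes at or below it. E2F3 had 1146 and 137 counts and was 5.79-fold lower (−2.53, −2.81 to −2.28). E2F1, the founding member of the family, had 566 and 332 counts. Its log2 ratio of −0.24 (−0.44 to −0.05) lay within 2-fold, with 42.0% of all tested genes at or below it. The ratio of E2F1 to E2F2 was 9.93-fold higher in the THZ1 library than in the DMSO library (log2 difference 3.31, 2.67 to 4.02), and that of E2F1 to E2F3 was 4.90-fold higher (2.29, 1.97 to 2.63). E2F2 and E2F3 differed from each other by −1.02 (−1.75 to −0.35). These differences between genes do not depend on how the libraries are scaled. On GRCh38, E2F1 (ENSG00000101412) lies on chromosome 20 from 33675683 to 33686404, E2F2 (ENSG00000007968) on chromosome 1 from 23506430 to 23531220 and E2F3 (ENSG00000112242) on chromosome 6 from 20401906 to 20493715. E2F3 has processed pseudogenes, of which E2F3P2 had 18 and 26 counts and E2F3P1 had 0 in both libraries, so reads could have been shared with the former.

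Promoters of E2F genes hold E2F sites of their own, through which the family is known to regulate itself, so the windows of the activators and of TFDP1 are shown with these sites in capitals. The RefSeq promoter table (GRCh38.p14, 250 bases before to 50 after each start) had windows for 8 of the 10 genes, and for E2F5 and E2F8 none was used. The search was for the letters TTTCCCGC, TTTGGCGC, TTTCGCGC and TTTGCCGC on both strands, with matches of different forms free to overlap. Positions count from the start site, which is 0. Sequences run 5′ to 3′ on the strand of the gene.
E2F1, chr20:33686336-33686635, minus strand: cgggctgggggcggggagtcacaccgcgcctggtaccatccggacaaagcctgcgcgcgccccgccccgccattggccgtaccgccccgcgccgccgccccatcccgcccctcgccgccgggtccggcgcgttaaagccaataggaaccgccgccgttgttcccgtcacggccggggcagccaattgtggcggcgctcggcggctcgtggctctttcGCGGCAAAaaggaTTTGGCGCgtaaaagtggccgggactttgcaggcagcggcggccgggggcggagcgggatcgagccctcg
E2F2, chr1:23531184-23531483, minus strand: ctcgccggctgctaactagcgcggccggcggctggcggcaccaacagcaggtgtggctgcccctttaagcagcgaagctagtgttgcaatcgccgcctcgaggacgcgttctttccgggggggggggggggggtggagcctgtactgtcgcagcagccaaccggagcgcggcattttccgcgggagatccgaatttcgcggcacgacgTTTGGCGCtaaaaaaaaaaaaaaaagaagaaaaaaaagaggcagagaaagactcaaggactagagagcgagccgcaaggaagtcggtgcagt
E2F3, chr6:20401629-20401928, plus strand: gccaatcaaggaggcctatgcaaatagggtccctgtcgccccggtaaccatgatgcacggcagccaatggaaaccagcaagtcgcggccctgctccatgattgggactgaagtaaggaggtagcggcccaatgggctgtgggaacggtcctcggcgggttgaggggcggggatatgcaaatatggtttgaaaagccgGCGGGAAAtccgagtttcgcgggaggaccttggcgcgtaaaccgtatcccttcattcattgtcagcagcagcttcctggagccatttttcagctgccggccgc
TFDP1, chr13:113584503-113584802, plus strand: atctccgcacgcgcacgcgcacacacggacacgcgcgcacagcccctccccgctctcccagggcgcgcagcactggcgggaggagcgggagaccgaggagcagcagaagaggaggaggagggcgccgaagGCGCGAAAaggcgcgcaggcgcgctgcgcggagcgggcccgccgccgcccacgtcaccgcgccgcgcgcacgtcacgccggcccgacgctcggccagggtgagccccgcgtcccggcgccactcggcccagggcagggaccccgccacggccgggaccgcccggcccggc
E2F1 held a pair of matches, one from −33 to −26 on the opposite strand and one from −20 to −13. E2F2 held 1, from −42 to −35, with the same letters (TTTGGCGC) as the second of E2F1. E2F3 held 1 on the opposite strand, from −53 to −46, in the first of its windows, and TFDP1 held 1 on the opposite strand from −120 to −113. No match was present in the windows used for E2F4, E2F6, E2F7 and TFDP2.

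Matches to these letters did not sort with the ratios. The genes with a match were E2F2 and E2F3, which were lower, and E2F1 and TFDP1, which were neither. The other window of E2F3 held no match, and the counts of E2F3 pool transcripts from all its starts. Among those without one, E2F6 and E2F7 were lower and E2F4 and TFDP2 were neither. The 4 member genes with a match made up 4 of 11 windows (36.4%), compared with 4.10% of 21578 windows of coding genes and 3.31% of all 35116 windows. The CCAAT box, letters CCAAT on either strand, was found in 4 member windows (36.4%), those of E2F1, E2F3, E2F7 and TFDP2, near the 34.9% of coding windows. The GC box, letters GGGCGG on either strand, was found in 8 of 11 (72.7%) against 56.8%. E2F2 was the single gene of the 8 with neither a CCAAT box nor a GC box in its window. The letters TTTGAA, the core of the cell cycle homology region, were in 3 of 11 windows (27.3%, those of E2F3 and of the downstream starts of TFDP2) against 12.4% of coding windows. A match is a run of letters and not a measured binding site.

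The repressors that act with pocket proteins sat on either side of the threshold. E2F4 is known as the most abundant E2F of quiescent cells. It had 704 counts in DMSO and 253 in THZ1, which is 1.93-fold lower (−0.95, −1.16 to −0.74) and within 2-fold. E2F5 had 370 and 122 counts and was 2.1-fold lower (−1.07, −1.38 to −0.78), just past 2-fold. Their ratios did not differ beyond counting error (0.12, −0.25 to 0.50), so the pair should not be read as split by the call. E2F4 (ENSG00000205250) lies on chromosome 16 from 67192169 to 67198918 and E2F5 (ENSG00000133740) on chromosome 8 from 85177225 to 85217158. Exons of E2F5 share 969 bases with RBIS, a coding gene on the opposite strand with 780 and 984 counts. No strand setting is given, so reads of these genes cannot be told apart there and the value of E2F5 is uncertain.

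All 3 repressors that act without pocket proteins were lower, where 21.3% of all tested genes were. The same 3 were lower with total counts (34.2% of all genes) and on the mitochondrial reference (80.3%). E2F7 was the family member with the most counts in DMSO, 3141, and had 591 in THZ1, a 3.69-fold lower ratio (−1.88, −2.01 to −1.76). Its paralogue E2F8 had 729 and 54 counts and was 9.30-fold lower (−3.22, −3.66 to −2.83), with 1.31% of tested genes at or below it. The atypical pair thus differed by 1.34 on the log2 scale (0.92 to 1.79), E2F8 being the lower. E2F6 had 685 and 97 counts and was 4.89-fold lower (−2.29, −2.62 to −1.99). E2F6 lies on chromosome 2 from 11444375 to 11466177 (ENSG00000169016), E2F7 on chromosome 12 from 77021247 to 77065580 (ENSG00000165891) and E2F8 on chromosome 11 from 19224063 to 19241620 (ENSG00000129173). Of the 4 listed processed pseudogenes of E2F6, E2F6P1 had 2 and 0 counts and the other 3 had 0 in both libraries. CSRP3-AS1, which shares 7 exonic bases with E2F8 on the opposite strand, had 1 count in each library.

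The DP partner genes had the highest ratios of the family, followed by E2F1. TFDP1 had 1937 and 1669 counts, a log2 ratio of 0.31 (0.22 to 0.41), and TFDP2 had 1168 and 1160, a ratio of 0.52 (0.40 to 0.63). Both lay within 2-fold and above 0 on the TMM scale, but with total counts TFDP1 was at −0.20 and TFDP2 at 0.00, and on the mitochondrial reference they were at −1.38 and −1.17. The DP genes differed from each other by −0.20 (−0.36 to −0.05), TFDP1 being the lower. E2F1, the E2F gene nearest to them, differed from TFDP1 by −0.55 (−0.78 to −0.33). TFDP1 (ENSG00000198176) lies on chromosome 13 from 113584721 to 113641470 and TFDP2 (ENSG00000114126) on chromosome 3 from 141944428 to 142149544. The retrogene TFDP3 and the pseudogenes TFDP1P1, TFDP1P2 and TFDP1P3 had 0 counts in both libraries. RPL19P6, a pseudogene inside TFDP2 that shares no exonic base with it, had 8 and 4 counts.

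From lowest to highest ratio the order was E2F2, E2F8, E2F3, E2F6, E2F7, E2F5, E2F4, E2F1, TFDP1 and TFDP2. Of the 9 pairs of neighbours in that order, 6 differed beyond counting error. The 3 that did not were E2F2 and E2F8 (−0.33, −1.12 to 0.43), E2F3 and E2F6 (−0.24, −0.66 to 0.17), and E2F5 and E2F4. Activators and repressors were interleaved in this order. In the same order the annotated spans were 24791 bases for E2F2, 17558 for E2F8, 91810 for E2F3, 21803 for E2F6 and 44334 for E2F7. They were 39934 for E2F5, 6750 for E2F4, 10722 for E2F1, 56750 for TFDP1 and 205117 for TFDP2. Whether span goes with the ratio was not tested. E2F1, E2F2 and E2F3 each have 7 exons in their longest transcript, and E2F7 and E2F8 each have 13. The GC content of the longest transcript was 62.5% for E2F1 and 57.5% for E2F2, at opposite ends of the E2F ratios. It was 59.3% for E2F4, 38.3% for E2F5, and from 43.1% (E2F7) to 46.8% (TFDP2) for the other genes. Whether GC content goes with the ratio was not tested.

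Levels can be compared between genes only per length, here as CPM (TMM-normalized counts scaled to a common library size) per kilobase of annotated exon. In DMSO, TFDP1 (23.5, 22.4 to 24.6) and E2F7 (22.6, 21.8 to 23.4) were highest and did not differ beyond counting error. E2F1 (10.3), E2F3 (10.1), E2F4 (8.91), E2F8 (7.99) and E2F6 (7.64) followed, in which neither E2F1 and E2F3 nor E2F8 and E2F6 were separated by their intervals. TFDP2 (4.45), E2F2 (3.24) and E2F5 (2.83) were lowest, the last pair again overlapping. E2F7, E2F1 and E2F3 were thus at or above the levels of 71.2% or more of tested genes in DMSO. Per kilobase of the longest transcript, however, TFDP1 (33.2) was above E2F7 (24.8) in DMSO. E2F4 (12.2) was then above E2F3 (10.9) and E2F1 (10.3), so the DMSO order depends on the length used. Per kilobase of annotated exon, the order in THZ1 became TFDP1 (29.1), E2F1 (8.66), TFDP2 (6.36), E2F7 (6.12), E2F4 (4.61), E2F3 (1.73), E2F6 (1.56), E2F5 (1.34), E2F8 (0.851) and E2F2 (0.275). E2F2 went from a level at or above 39.7% of tested genes to one at or above 5.13%, and E2F3 from 71.2% to 32.5%. Among neighbours in the THZ1 order, TFDP2 and E2F7, E2F3 and E2F6, and E2F6 and E2F5 were not separated.

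**Figure D2:**
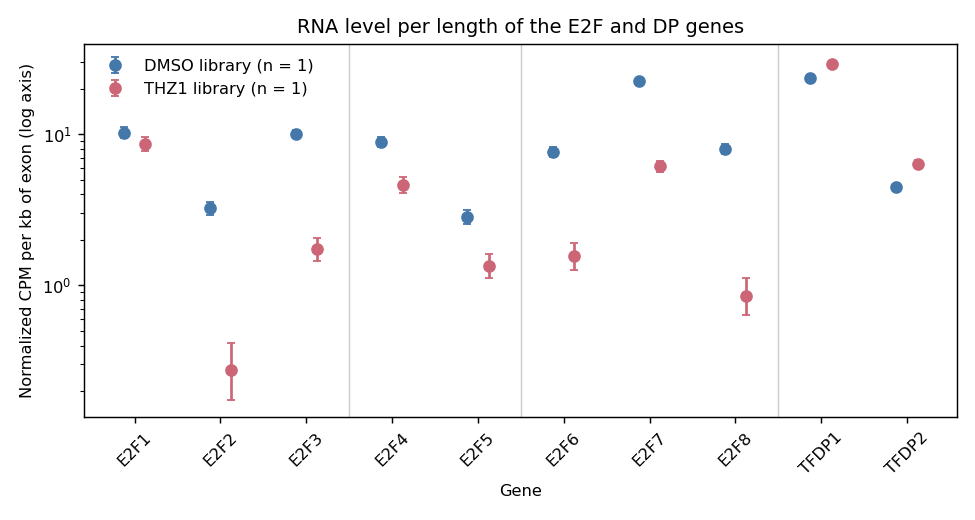
Normalized CPM per kilobase of exon (log axis) for each gene in the DMSO and THZ1 libraries, 1 library each; bars are 95% counting intervals, and grey lines separate activators, pocket-protein-bound repressors, the other repressors and DP partners. E2F2 drops from 3.24 to 0.275 and E2F8 from 7.99 to 0.851, while E2F1 goes from 10.3 to 8.66.

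The DP partners held a larger share of the family's RNA in THZ1 than in DMSO. Summed per length, the 8 E2F genes came to 73.5 in DMSO and 25.1 in THZ1, a 2.92-fold lower sum, and the DP genes to 27.9 and 35.5. DP RNA was therefore 0.38 times the E2F RNA in DMSO and 1.41 times in THZ1, a comparison within each library that is free of the scaling but not of the length used. Of the level of all 10 genes, the DP partners held 27.5% (26.6 to 28.4) in DMSO and 58.5% (56.9 to 60.1) in THZ1. Per longest transcript the DP share was 31.6% in DMSO and 63.3% in THZ1, and without division by length 28.7% and 63.7%. The activators went from 23.2% (22.3 to 24.1) to 17.6% (16.2 to 19.1), E2F6 to E2F8 from 37.7% (36.7 to 38.6) to 14.1% (13.1 to 15.1), and E2F4 with E2F5 from 11.6% (10.9 to 12.3) to 9.82% (8.90 to 10.8). Among the 8 E2F genes alone the activator share was instead higher in THZ1, 42.4% (39.7 to 45.1) against 32.0% (30.9 to 33.2), and that of E2F6 to E2F8 went from 52.0% (50.8 to 53.2) to 33.9% (31.7 to 36.2). The size of this activator difference depends on the length used. Without division by length the activator share of the 8 genes was 30.6% (28.4 to 32.9) in THZ1 against 27.2% (26.2 to 28.2) in DMSO. The remaining activator RNA was mostly E2F1: E2F1 made up 10.1% of the 10-gene level in DMSO and 14.3% in THZ1, E2F3 9.92% and 2.86%, and E2F2 3.19% and 0.454%. Counts are per gene, so the activator share takes E2F3 as a whole and does not separate transcripts from its different starts.

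**Figure D3:**
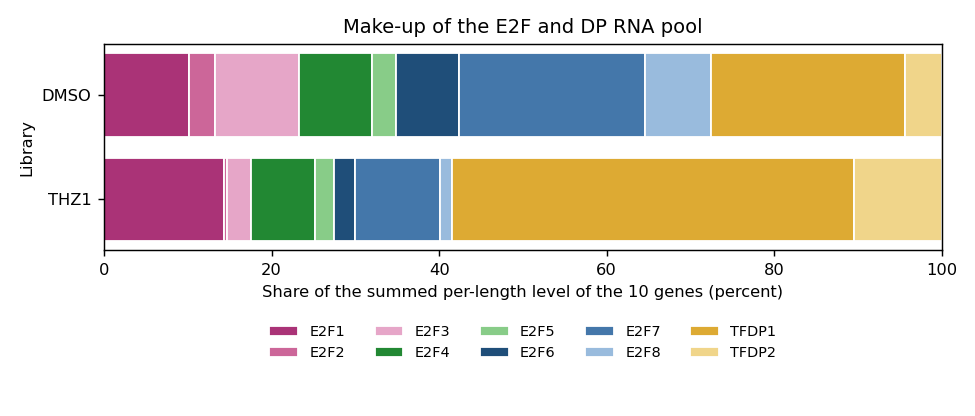
Share of each gene in the summed per-length level of the 10 genes (horizontal axis, percent) in the DMSO and THZ1 libraries, 1 library each; colours group activators (magenta), E2F4 and E2F5 (green), E2F6 to E2F8 (blue) and DP partners (yellow). TFDP1 takes 23.1% in DMSO and 48.0% in THZ1, and E2F7 22.3% and 10.1%.

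The upstream regulators were uneven, and the pocket proteins were not among the called genes. RB1, which restrains the activators, had 2372 and 2809 counts (0.77, 0.69 to 0.85), and RBL2, which encodes p130, had 1114 and 1202 (0.63, 0.52 to 0.75). RBL1, which encodes p107 and is itself an E2F target, had 1704 and 738 (−0.68, −0.81 to −0.56). With total counts these ratios become 0.25, 0.12 and −1.20, and RBL1 is then lower by the rule. Of 7 tested G1 cyclins and CDKs, 3 were lower (42.9%) and 0 higher, with a median of −0.54, beside 21.3% lower, 9.70% higher and a median of −0.03 over all tested genes. The lower ones were the cyclin E genes CCNE2 (443 and 48 counts, −2.67) and CCNE1 (598 and 101, −2.03), whose products complete the phosphorylation of RB1 and which are E2F targets, and the cyclin D kinase gene CDK6 (4152 and 1227, −1.23). CCND1 (17083 and 10765, −0.14), CCND3 (−0.54) and CDK4 (−0.33) were within 2-fold. Among 6 tested CDK inhibitor genes, CDKN1B, which encodes p27, was lower (−1.24). CDKN2A, which encodes p16 and ARF, was higher (1.32, 1.18 to 1.46; 660 and 1142 counts), as was CDKN2D at the threshold (1.002; 48 and 67 counts), which is outside the naming rule and was named after its value was seen. CDKN2C (−0.79) and CDKN2B (0.86) were neither. CDKN2A has a ratio of 0.80 with total counts, where 0 of the list are higher (2.95% of all genes) and 3 are lower (34.2% of all genes), and −0.37 on the mitochondrial reference.

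The lists of E2F protein partners had shares of lower genes near that of all tested genes, which was 21.3%. The share of higher genes among all tested genes was 9.70%. The MuvB core joins E2F4 and the pocket proteins in the DREAM complex, and later B-Myb and FOXM1 in the cell cycle. Of 7 tested genes of this list, LIN54, the DNA-binding subunit, was lower (1235 and 253 counts, −1.76), 0 were higher and 6 were neither (14.3% lower, median −0.31). LIN9 was at −0.90, LIN52 at −0.59, the B-Myb gene MYBL2 at −0.31, FOXM1 at −0.04 and MYBL1 at 0.53. Among 12 genes of the E2F6 Polycomb complex, L3MBTL2 (627 and 96 counts, −2.18) and MGA (2124 and 598, −1.30) were lower, 0 were higher and 10 were neither, with MAX, the partner of MGA, at −0.92 and WDR5 at −0.996, just under 2-fold. The E2F6 list had 16.7% lower and a median of −0.15. With total counts 3 of 7 in the MuvB list and 5 of 12 in the E2F6 complex list were lower, where 34.2% of all tested genes were. Of 15 genes for enzymes and cofactors that act on E2F proteins, 6 were lower (40.0%, beside 21.3% of all genes), 1 was higher (9.70% of all genes) and 8 were neither, with a median of −0.63. CCNF, which encodes the cyclin F subunit of an E2F-degrading ubiquitin ligase, had 521 and 35 counts (−3.35, −3.91 to −2.88). FZR1, an activator of the anaphase-promoting complex, was at −2.24, and the acetyltransferase genes EP300 (3359 and 528 counts) and CREBBP (1898 and 316) were at −2.14 and −2.06. The higher gene was the acetyltransferase KAT2B (1916 and 2967 counts, 1.16), which becomes 0.64 with total counts; it is outside the naming rule and was named after its value was seen.

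Of 65 textbook targets, all tested, 20 were lower (30.8%, beside 21.3% of all genes), 0 were higher (beside 9.70% of all genes) and 45 were neither. Their median was −0.34, and 44 were below the median of all genes. The lowest were CDC25A, the phosphatase that activates CDK2 (−4.60; 1312 and 37 counts), FBXO5, an inhibitor of the anaphase-promoting complex (−3.34; 1352 and 92), GINS3 of the replicative helicase (−3.16; 469 and 36) and the licensing factor gene CDT1 (−2.60; 537 and 61). Scaled to total counts, 29 of the 65 targets were lower (34.2% of all genes were), and scaled to mitochondrial mRNAs 62 were (80.3% of all genes). Neither scaling gave a higher target, where 2.95% and 0.706% of all genes were higher. Of the 59 targets in the promoter table, 32 (54.2%) had 1 of the E2F letter runs in a window; 8 of these were lower, with a median of −0.21, whereas 11 of the 27 without one were lower, with a median of −0.69. Among 11 tested apoptosis genes known as E2F1 targets, 4 were lower (36.4%, beside 21.3% of all genes), with a median of −0.67. Of the same genes 0 were higher (beside 9.70% of all genes) and 7 were neither. TP73, a relative of p53 (179 and 15 counts, −3.01) and BCL2L11, which encodes the BH3-only protein BIM (158 and 37 counts, −1.55), were among the lower genes. With total counts 7 of the 11 were lower, where 34.2% of all genes were.

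**Figure D4:**
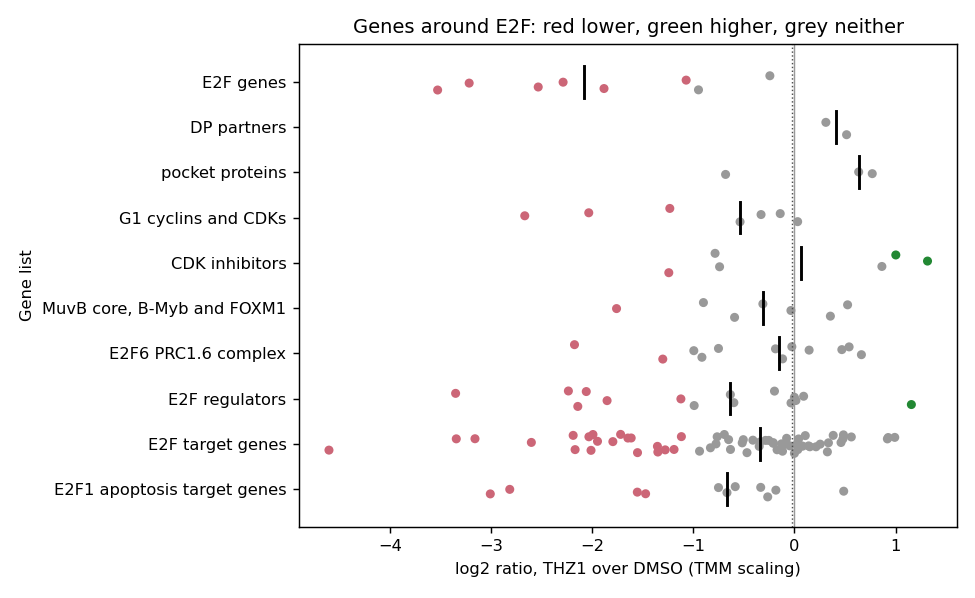
Log2 ratio of THZ1 over DMSO (horizontal axis, TMM scaling) for every tested gene of each list; each point is 1 gene, red if lower and green if higher by the 2-fold rule, black bars are list medians, the dotted line is the median of all tested genes, and vertical scatter is only for display. The E2F genes have a median of −2.09, the DP partners 0.41, the pocket proteins 0.63 and the E2F target genes −0.34.

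The coding genes nearest to E2F2 in level over the 2 libraries, by distance on log2 normalized CPM, were AXIN1 (378 and 22 counts, distance 0.077), RTL6 (399 and 25, 0.122) and PAX9 (412 and 21, 0.151). Those nearest to TFDP2, at the other end of the family, were MANF (1160 and 1174 counts, distance 0.020), MAPRE2 (1141 and 1183, 0.044) and FBL (1205 and 1160, 0.045). With 2 libraries, likeness means only a similar pair of counts.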

How the data were processed

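The authors deposited whole-number read counts for each gene without normalization. Per the submitters' processing notes, the tools were HISAT2 2.1.0, featureCounts 1.6.0 and Trimmomatic 0.38, with build GRCh38. The sources used here do not state the annotation release, strand setting or handling of multi-mapped reads. Of 58884 gene IDs, 58611 matched GENCODE 29 and 58472 had a symbol. TMM factors (edgeR 4.0.16, R 4.3.3) came from the genes with at least 30 counts and gave effective library sizes of 22049153 (DMSO) and 15320940 (THZ1). Ratios had 0.5 added to each count. Intervals are Clopper-Pearson for ratios, exact Poisson for levels, the conditional odds ratio for differences between genes, and a delta method for shares. No molecular identifiers are described, so reads may include PCR copies of one molecule. The calls were tested on simulated counts that held counting error only, so that test does not cover variation between cultures. Exon lengths are unions of annotated exons. Python 3.11.15, scipy 1.17.1 and pandas 2.3.3 were used.

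Libraries were grouped by treatment label. The members and gene lists were chosen with earlier results of these data known. Named genes are the 10 members, up to 4 genes per list furthest from 0 with at least 100 counts, a fixed set (RB1, RBL1, RBL2, CCND1, CDK4, CDK6, CCNE1, MYBL2, FOXM1 and CDK7), the 3 nearest coding genes to the extreme members, and copies or overlapping genes with counts; a few genes that this rule names are not reported here. The markers EPCAM, CDH1, LUM and COL1A1 fall outside this rule and were named from the marker lists after their values were seen. Alternatives were scaling by total counts, DESeq2 1.42.0, upper quartile or mitochondrial mRNAs, count minimums of 1 and 100, other call rules (1.5-fold, or an interval bound of 2-fold), thinning, 5 added counts and other lengths.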

Additional observations from a re-analysis of the deposited data

How the results depend on the processing

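No paired analysis was possible because each group had 1 library, and no replicate could be left out. The number of lower E2F and DP genes, 6, was between 5 and 7 under all settings other than the mitochondrial reference, where it was 10. Of all tested genes, 21.3% were lower in the main setting. That share lay between 11.7% (count minimum 1) and 34.2% (total counts) under the others, and was 80.3% on the mitochondrial reference. The number of higher E2F and DP genes was 0 under every setting run. The share of all tested genes that were higher lay between 0.706% (mitochondrial reference) and 23.4% (1.5-fold rule). E2F5 was not called when the interval bound itself had to reach 2-fold, and E2F4 was called lower with total counts, the 1.5-fold rule, the mitochondrial reference and TMM factors from all listed genes. The member median of −1.48 became −1.99 with total counts, −3.17 on the mitochondrial reference and −1.58 with TMM factors from all listed genes, an alternative chosen after seeing the data. Of the E2F target genes, 20 were lower, and 62 on the mitochondrial reference, beside 21.3% and 80.3% of all tested genes. With total counts, lower genes numbered 4260 of all tested against 2657, 3 against 1 for the CDK inhibitors, 3 against 1 for the MuvB list, 5 against 2 for the E2F6 complex and 7 against 4 for the apoptosis list; on the mitochondrial reference they numbered 10000, 3, 7, 12 and 11. The activator share of the 10-gene level was 20.2% (DMSO) and 14.0% (THZ1) per longest transcript and 19.4% and 11.1% without division by length, beside 23.2% and 17.6%; it was lower in THZ1 each time. E2F2, with 23 counts in THZ1, has the widest interval of the family, and with 1 library per group no interval covers differences between cultures.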
